A study of Gallus gallus with 8 samples.

Results

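MSX1, MSX2, DLX3, DLX5 and DLX6 are homeobox genes, which encode transcription factors that bind DNA through a homeodomain. They were chosen by their symbols in the deposited table of a chick neural tube experiment, with every probe set of each gene kept. These are 5 of the 13257 gene symbols in the table and 7 of the 38535 probe sets on the array: 1 each for MSX1, MSX2, DLX3 and DLX5, and 3 for DLX6.

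White Leghorn chick embryos at Hamburger and Hamilton stages 10 to 11 received 2 plasmids by electroporation into the trunk neural tube in ovo. In the first, a BMP-responsive element (BRE) and a minimal promoter drove the green protein EGFP, and the other expressed a nuclear red fluorescent protein from a general promoter. Neural tubes were taken 24 h later, nearly 30 embryos were combined into each of 4 pools, and red cells of each pool were sorted into a fraction with green fluorescence (BRE_active) and a fraction without it (BRE_inactive). Both groups therefore came from the same embryos, which received both plasmids, and were separated by the reporter signal. BRE_inactive cells were sorted as red cells without green signal and were not chosen as untouched tissue. The sort does not show whether each of them had taken up the reporter plasmid. There were 4 arrays per group, numbered by pool, and a reporter that is transiently electroporated marks only cells that took up the DNA.

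BMP ligands bind receptor kinases that phosphorylate SMAD1, SMAD5 and SMAD9, which enter the nucleus with SMAD4 and act on response elements of target genes. The MSX genes are homologues of the Drosophila muscle segment homeobox gene, act largely as repressors, and are known BMP targets in the dorsal neural tube, roof plate and neural crest. The DLX genes are homologues of Drosophila Distal-less, act largely as activators, lie in pairs in vertebrate genomes, and are known from the neural plate border, surface ectoderm, crest-derived pharyngeal arch mesenchyme, limb and forebrain. The comparison of the 2 fractions asks which members go with an active BMP reporter in neural tube cells.

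Both MSX genes and DLX5 were detected in both fractions and were higher where the reporter was active, while DLX3 and DLX6 were called absent on all 8 arrays. DLX5 was 3.51-fold higher (95% interval 2.66 to 4.63), MSX2 3.22-fold higher (2.55 to 4.06) and MSX1 1.90-fold higher (1.53 to 2.37). In limma's test over all probe sets, 3 of the 7 member probe sets were called higher at an adjusted p under 0.05 and 0 lower. Over all 38439 tested probe sets, 377 (0.981%) were called higher and 140 (0.364%) lower. With a term for the embryo pool (a block), the same 3 member probe sets were called higher, beside 1527 (3.97%) higher and 629 (1.64%) lower over all probe sets. The plot of the member values by array shows the separation of these 3 genes and the overlap of the rest.

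**Figure D1:**
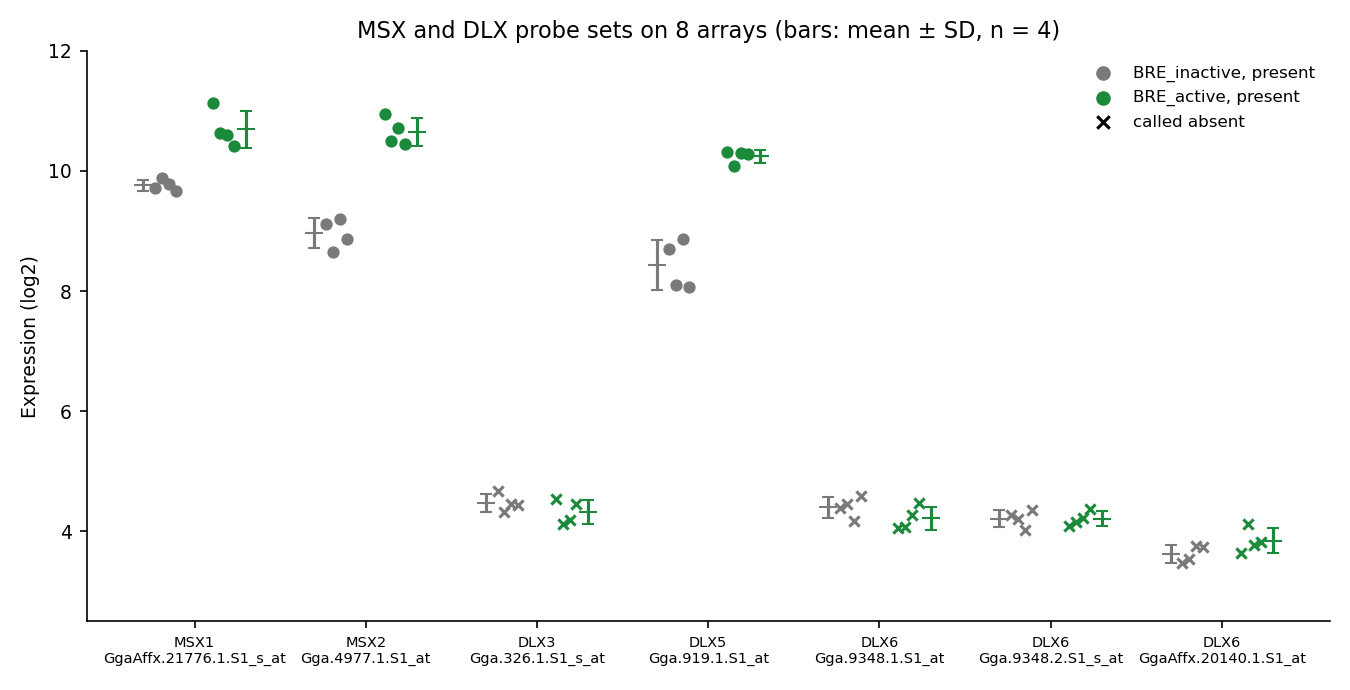
Expression (log2) of the 7 member probe sets on each of the 8 arrays, grey for BRE_inactive and green for BRE_active, with the mean and SD of 4 arrays beside the points. Dots are probe sets called present on all 4 arrays of a group and crosses are those called absent; MSX1, MSX2 and DLX5 separate by group and DLX3 and DLX6 do not.

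MSX2 (1 probe set, gene ID 395245, chromosome 13 in the deposited table) encodes a homeodomain repressor. Its log2 expression in BRE_inactive pools 1 to 4 was 9.12, 8.65, 9.21 and 8.87. In BRE_active pools 1 to 4 it was 10.95, 10.49, 10.71 and 10.44. All 4 BRE_active arrays lay above all 4 BRE_inactive arrays, with a gap of 1.23 between the nearest pair. The group means were 8.96 ± 0.25 and 10.65 ± 0.23 (SD, n = 4), a log2 difference of 1.69 ± 0.15 (SE; limma adjusted p = 0.0012). Within pools 1 to 4 the log2 difference was 1.82, 1.84, 1.51 and 1.57, with an SD over pools of 0.17, against 0.32 for MSX1 and 0.35 for DLX5. MSX2 ranked 23rd by p among the tested probe sets and 50th by size of increase.

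MSX1 (gene ID 396484, chromosome 4) encodes the related repressor and was measured by 1 probe set. The suffix _s_at of its name is Affymetrix's mark for probes that can match more than 1 transcript, so its signal may not come from MSX1 alone. Its log2 expression in BRE_inactive pools 1 to 4 was 9.72, 9.88, 9.79 and 9.67. In BRE_active pools 1 to 4 it was 11.12, 10.63, 10.60 and 10.42. The groups did not overlap, with a gap of 0.54, and the BRE_active array of pool 1 stood above the other 3. The means were 9.76 ± 0.09 and 10.69 ± 0.30 (SD, n = 4), a log2 difference of 0.93 ± 0.14 (SE; limma adjusted p = 0.0138). Pool 1 gave a log2 difference of 1.40, and pools 2 to 4 gave 0.75, 0.81 and 0.75. Without both arrays of pool 1 the difference was 0.77, with a limma adjusted p of 0.0513 on the remaining 3 pools. The call also ended without pool 2 (0.99, adjusted p = 0.106), without pool 3 (0.97, adjusted p = 0.112) and without the single array BRE_active 2 (0.95, adjusted p = 0.051). MSX1 ranked 205th by p among the tested probe sets and 375th by size of increase.

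DLX5 (1 probe set, gene ID 373969, chromosome 2) encodes a homeodomain activator. Its log2 expression in BRE_inactive pools 1 to 4 was 8.69, 8.09, 8.87 and 8.07. In BRE_active pools 1 to 4 it was 10.32, 10.09, 10.29 and 10.27. The groups did not overlap, with a gap of 1.22. The 4 BRE_active arrays lay close together, while the BRE_inactive arrays of pools 1 and 3 were higher than those of pools 2 and 4. The means were 8.43 ± 0.41 and 10.24 ± 0.10 (SD, n = 4), a log2 difference of 1.81 ± 0.18 (SE; limma adjusted p = 0.00199). The log2 difference was 1.63, 2.00, 1.42 and 2.20 in pools 1 to 4, larger in the pools whose BRE_inactive level was lower. With BRE_active values this close together, that order follows largely from the subtraction. DLX5 ranked 37th by p and 29th by size of increase among the tested probe sets.

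**Figure D2:**
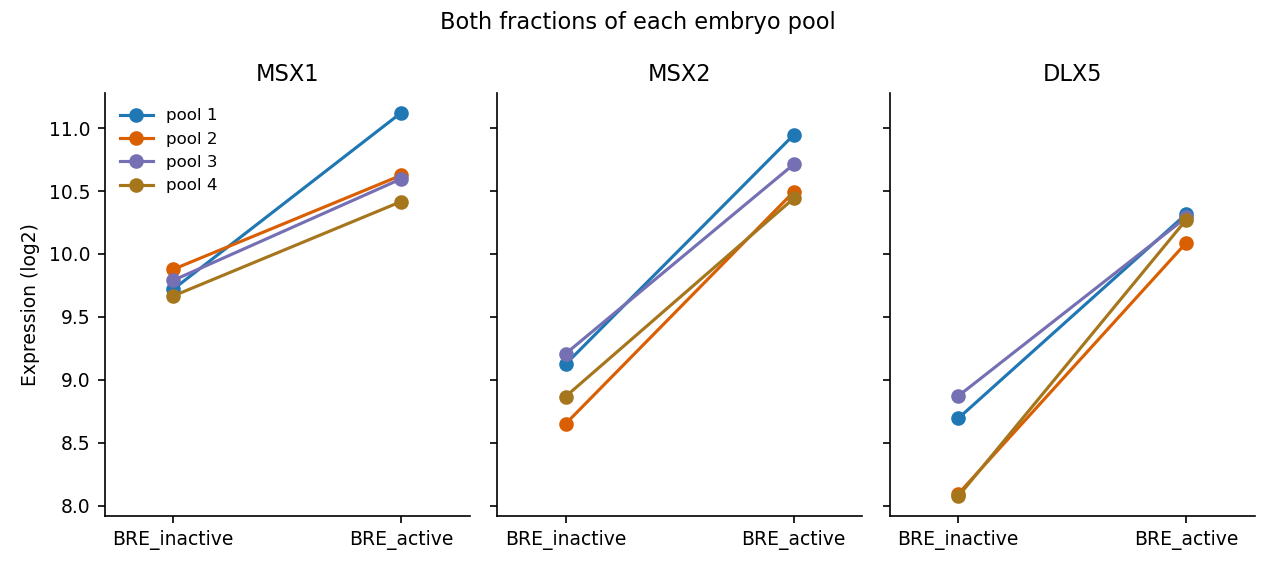
Expression (log2) of MSX1, MSX2 and DLX5 in the BRE_inactive and BRE_active fraction of each pool, with a line joining the 2 fractions of a pool. All 12 lines rise; pool 1 is the steepest for MSX1 (1.40), and pool 4 for DLX5 (2.20).

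For each of MSX1, MSX2 and DLX5 an exact two-sided permutation test over the 8 arrays gave p = 0.0286, which is the smallest value that 4 arrays against 4 allow. This test treats the 8 arrays as exchangeable and ignores their pairing by pool. An exact sign-flip test within 4 pools cannot give a p under 0.125. An arrangement with every BRE_active array above every BRE_inactive array was seen in 1438 (3.74%) of all tested probe sets and in 1016 (6.9%) of the 14730 present on at least 4 arrays. The 3 genes were compared with each other by their differences within pools, in 3 pairs. The increase of MSX1 was smaller than that of MSX2 in all 4 pools, by a mean of 0.76 ± 0.28 (SD, n = 4 pools), and smaller than that of DLX5 in all 4 pools, by 0.88 ± 0.57. Exact sign-flip tests gave p = 0.125 for both (0.188 adjusted over the 3 pairs), the smallest p that 4 pools allow, so these designs cannot pass 0.05. MSX2 and DLX5 differed by 0.12 ± 0.36, with 2 pools in each direction (exact p = 0.75). Different probe sets can compress a difference unequally, and the sizes are given per probe set.

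The BRE_inactive arrays of pools 1 and 3 were higher than those of pools 2 and 4 for MSX2 as well as DLX5, which was not the order of MSX1. On the same BRE_inactive arrays the mean of the 7 measured red blood cell genes was 13.05, 11.07, 12.71 and 11.93 (log2) in pools 1 to 4, and the mean of 13 neural crest factors was 7.16, 7.11, 7.45 and 6.95. The mean of 12 surface ectoderm genes was 6.88, 6.69, 6.70 and 6.48. These 3 lists were also higher in pools 1 and 3 than in pools 2 and 4, and the other 8 of the 11 related and marker lists were not. The lists were singled out after their values were seen, and their part in the order of the members was not tested.

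DLX3 (1 probe set with the suffix _s_at, gene ID 395590, without a placed chromosome in the deposited table) belongs to the same family and is known from epidermis, placenta and the neural plate border of other vertebrates. Its log2 values were 4.67, 4.32, 4.46 and 4.44 in BRE_inactive pools 1 to 4 and 4.54, 4.11, 4.19 and 4.45 in BRE_active pools 1 to 4. The groups overlapped, and the probe set was called absent on all 8 arrays. The log2 difference was -0.15 ± 0.12 (SE; limma adjusted p = 0.616).

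DLX6 (gene ID 772070, chromosome 2) is the genomic partner of DLX5, and its 3 probe sets were called absent on all 8 arrays. The first, with the suffix _at, read 4.39, 4.45, 4.16 and 4.59 in BRE_inactive and 4.06, 4.07, 4.27 and 4.47 in BRE_active pools 1 to 4. The second, with the suffix _s_at, ranged from 4.02 to 4.35 in BRE_inactive and from 4.09 to 4.37 in BRE_active cells. The third, from the GgaAffx series and with the suffix _at, ranged from 3.47 to 3.76 and from 3.64 to 4.13. The groups overlapped for all 3. The log2 differences were -0.19 ± 0.12, 0.0014 ± 0.098 and 0.22 ± 0.12 (SE), with limma adjusted p = 0.537, 0.998 and 0.459, and they did not share a sign. With both fractions called absent, no fold is given for DLX3 or DLX6, and the array does not show whether either gene is transcribed at a level below its detection.

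The same held for the only other DLX gene found under its symbol. DLX1 was called absent on all 8 arrays by each of its 3 probe sets, with log2 differences from -0.16 to 0.17 and limma adjusted p from 0.494 to 0.933. DLX2 and DLX4 had no probe set under their symbols and were not analysed here. Of the 4 DLX genes measured, DLX5 was the only one called present on any array.

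**Figure D3:**
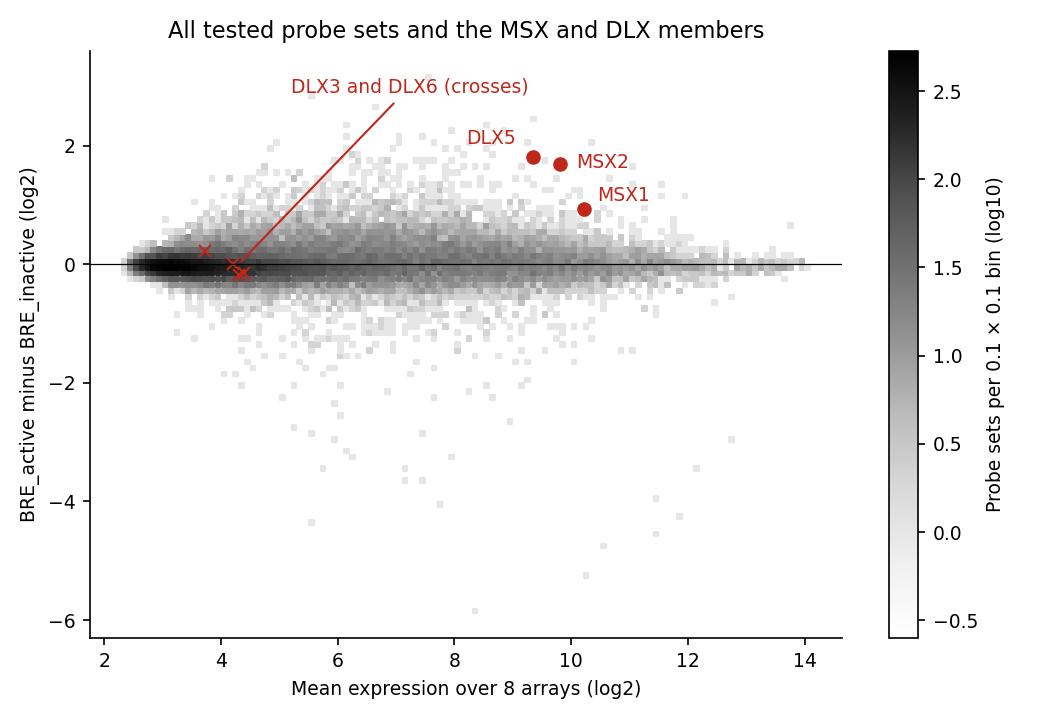
Mean expression over 8 arrays (x axis, log2) against the difference between fractions (y axis, log2) for the tested probe sets, with grey squares shaded by the number of probe sets in a bin, and members in red. MSX1, MSX2 and DLX5 lie at 0.93, 1.69 and 1.81 on the y axis, and the crosses of DLX3 and DLX6 lie between -0.19 and 0.22.

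The position of the members was read from a RefSeq gene table of assembly GRCg7b, used only for gene order. DLX5 and DLX6 are adjacent protein-coding genes there, as are DLX3 and DLX4. None of the 4 genes measured beside the DLX5 and DLX6 pair was called. SDHAF3, the next gene on the other side from DLX6, encodes an assembly factor of a mitochondrial complex and gave -0.10 ± 0.08 (log2 difference, SE; limma adjusted p = 0.622). TAC1, a neuropeptide precursor gene beyond it, gave -0.43 ± 0.25 (adjusted p = 0.485). SHFM1, on the far side of DLX6, gave 0.06 ± 0.14 (adjusted p = 0.878), and SLC25A13 beyond it gave 0.08 ± 0.09 (adjusted p = 0.743).

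The 2 protein-coding neighbours on each side of the MSX genes were not called either. Beside MSX1, the cytokine-like gene CYTL1 gave 0.63 ± 0.25 (limma adjusted p = 0.303), and STX18, NSG1 and STK32B gave -0.15 ± 0.11, -0.20 ± 0.13 and -0.14 ± 0.08 (adjusted p = 0.592, 0.527 and 0.472). Beside MSX2, the mitochondrial carrier gene SFXN1 gave -0.17 ± 0.11 (adjusted p = 0.534), and HMP19, CPEB4 and the dopamine receptor gene DRD1 gave 0.20 ± 0.13, -0.20 ± 0.10 and 0.16 ± 0.13 (adjusted p = 0.525, 0.402 and 0.619). STK32B and CPEB4 were called present on 0 arrays and STX18 and DRD1 on 1.

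MSX and DLX genes belong to the NKL class of homeobox genes, and no other measured gene of that class was called higher. Only 22 of the 41 listed relatives were measured, and of these 0 rose, 4 fell and 18 were not called. Their median log2 difference was -0.14, against -0.02 over the 13249 genes. Among the 13249, 206 (1.55%) were called higher and 87 (0.657%) lower. With the block the list gave 0 higher and 4 lower, beside 650 (4.91%) higher and 338 (2.55%) lower over these genes. Those that fell are factors of ventral and intermediate progenitors and of the ventral forebrain. NKX6-2 and NKX6-1, which pattern the ventral neural tube, gave log2 differences of -2.86 ± 0.27 and -2.70 ± 0.41 (SE; limma adjusted p = 0.00157 and 0.0137). DBX2, of the intermediate neural tube, gave -2.27 ± 0.16 (adjusted p = 0.000377). NKX2-1 gave -0.64 ± 0.12 (adjusted p = 0.0395) and was present on 4 BRE_inactive arrays and 1 BRE_active array. Its log2 means, 3.98 in BRE_inactive and 3.34 in BRE_active cells, lay below the median of all tested probe sets (4.28). The call was lost in 9 of the 12 fits that left out an array or a pool. Of the 22 relatives, 12 were called present on 0 arrays.

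**Figure D4:**
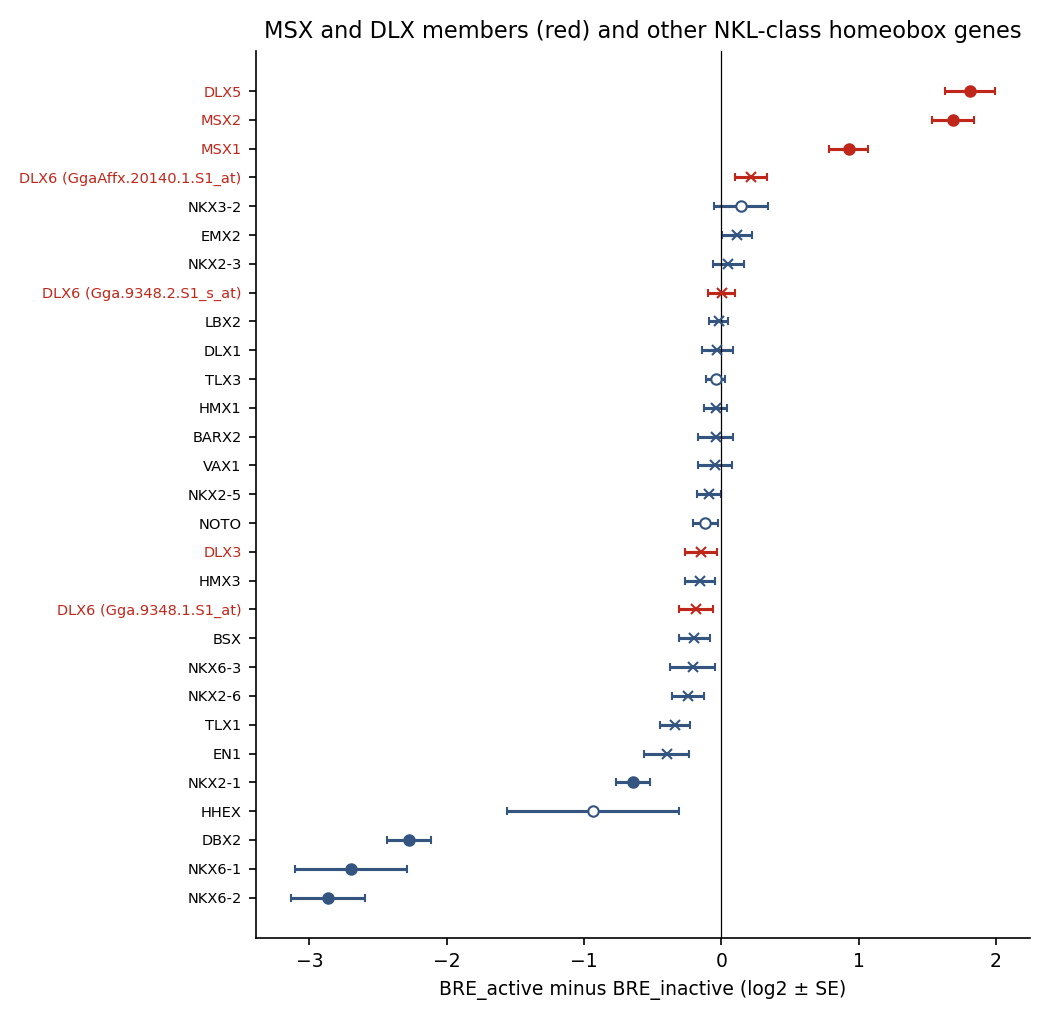
Log2 difference between BRE_active and BRE_inactive with its SE for the 7 member probe sets (red) and 22 other NKL-class homeobox genes (blue). Circles are probe sets present on at least 4 arrays, crosses are present on fewer, and filled circles were called; DLX5, MSX2 and MSX1 are filled on the right, and NKX2-1, DBX2, NKX6-1 and NKX6-2 on the left.

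Upstream of the members are the genes of BMP signal reception. Of 14 measured ligands, receptors and SMADs, 1 rose and 13 were not called, beside 1.55% of all genes called higher. Under the pool as a block 4 of the 14 were higher, beside 4.91% of all genes, and the median log2 difference was 0.05. The ligand BMP5 gave 1.55 ± 0.18 (SE; limma adjusted p = 0.00383). BMP7 gave 1.37 ± 0.31 (adjusted p = 0.0772, 0.0175 with the block). BMP4 was called present on 0 arrays. SMAD1 and SMAD5, which carry the signal to the nucleus, gave -0.10 ± 0.09 and 0.24 ± 0.13 (adjusted p = 0.674 and 0.442).

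Other genes known to respond to BMP gave smaller differences than MSX2 and DLX5, as values of single probe sets. Of 16 measured, 4 rose, 0 fell and 12 were not called, and the median log2 difference was 0.07. Among all genes, 1.55% were called higher and 0.657% lower. ID2, ID3 and ID4, which encode inhibitors of basic helix-loop-helix factors, rose by 0.60 ± 0.09, 0.79 ± 0.13 and 0.40 ± 0.08 (SE; limma adjusted p = 0.0138, 0.0226 and 0.0341). ATOH8, a helix-loop-helix gene, rose by 0.57 ± 0.09 (adjusted p = 0.0169). In the 12 fits that left out an array or a pool, ID4 lost its call in 11. ID2, ID3 and ATOH8 lost theirs in 5, 7 and 6. ID1 gave -0.76 ± 0.17 (adjusted p = 0.076, 0.00747 with the block), and SMAD6 gave 0.82 ± 0.23 (adjusted p = 0.159, 0.00309 with the block). The block gave 5 higher and 1 lower, beside 4.91% higher and 2.55% lower over all genes. GATA2, GATA3, TBX2 and TBX3, which respond to BMP in non-neural tissues, were present on 1, 0, 0 and 0 arrays.

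DLX5 and MSX1 are also used as genes of the neural plate border, and that list moved in both directions. Of 14 measured border and non-neural ectoderm factors, 2 rose, 1 fell and 11 were not called (5 higher and 1 lower with the block), with a median log2 difference of 0.11. Among all genes, 1.55% were called higher and 0.657% lower, and with the block 4.91% and 2.55%. TFAP2B and TFAP2A, AP-2 transcription factors of the border and crest, rose by 2.39 ± 0.35 and 1.78 ± 0.36 (SE; limma adjusted p = 0.0115 and 0.0466). GBX2, a homeobox gene of posterior neural territory, gave -0.74 ± 0.14 (adjusted p = 0.0329). The calls of TFAP2B, TFAP2A and GBX2 were lost in 4, 9 and 9 of the 12 fits that left out an array or a pool. TP63, a defining factor of surface ectoderm, gave -0.06 ± 0.12 (adjusted p = 0.846).

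The next 2 lists stand beside 1.55% of all genes called higher, and 4.91% with the block. Of 8 measured dorsal neural tube and roof plate genes, 2 rose and 6 were not called, with 4 higher under the block and a median log2 difference of 0.40. These were RSPO3, an enhancer of Wnt signalling, at 1.67 ± 0.22 (SE; limma adjusted p = 0.00674), and the roof plate factor LMX1B, at 1.09 ± 0.18 (adjusted p = 0.0228), which was present on 3 BRE_active and 0 BRE_inactive arrays. RSPO3 lost its call in 2 and LMX1B in 7 of the 12 fits that left out an array or a pool. Of 13 measured neural crest factors, 7 rose and 6 were not called (9 higher with the block), with a median of 0.90. They were SNAI2, FOXD3, SOX10, SOX5, LMO4, ID2 and RXRG, the last called present on 0 arrays. SOX10, a crest factor, rose by 2.03 ± 0.25 (adjusted p = 0.00542), and the increase of the LIM-domain gene LMO4 was 1.12 ± 0.13 (adjusted p = 0.00406).

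MSX2 and DLX5 were called in each of the 12 settings that left out an array or a pool, and MSX1 in all but 4 of them. Of the 20 genes called in these 6 lists, 2 (DBX2 and NKX6-2) were called in all 12 settings, 4 (BMP5, LMO4, RSPO3 and SOX10) lost the call only when a whole pool was left out, and 14 lost it in at least 1 setting without a single array. The number of list genes called was 32 with the block, 12 without BRE_active 1, 10 without BRE_active 2, 8 without BRE_active 3 and 13 without BRE_inactive 1. It was 25 without BRE_active 4, and from 14 to 17 without one of the other 3 BRE_inactive arrays. Leaving out both arrays of pool 1, 2, 3 or 4 gave 4, 3, 4 and 26. The lists were compiled with earlier results of these data known and are counts only.

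**Figure D5:**
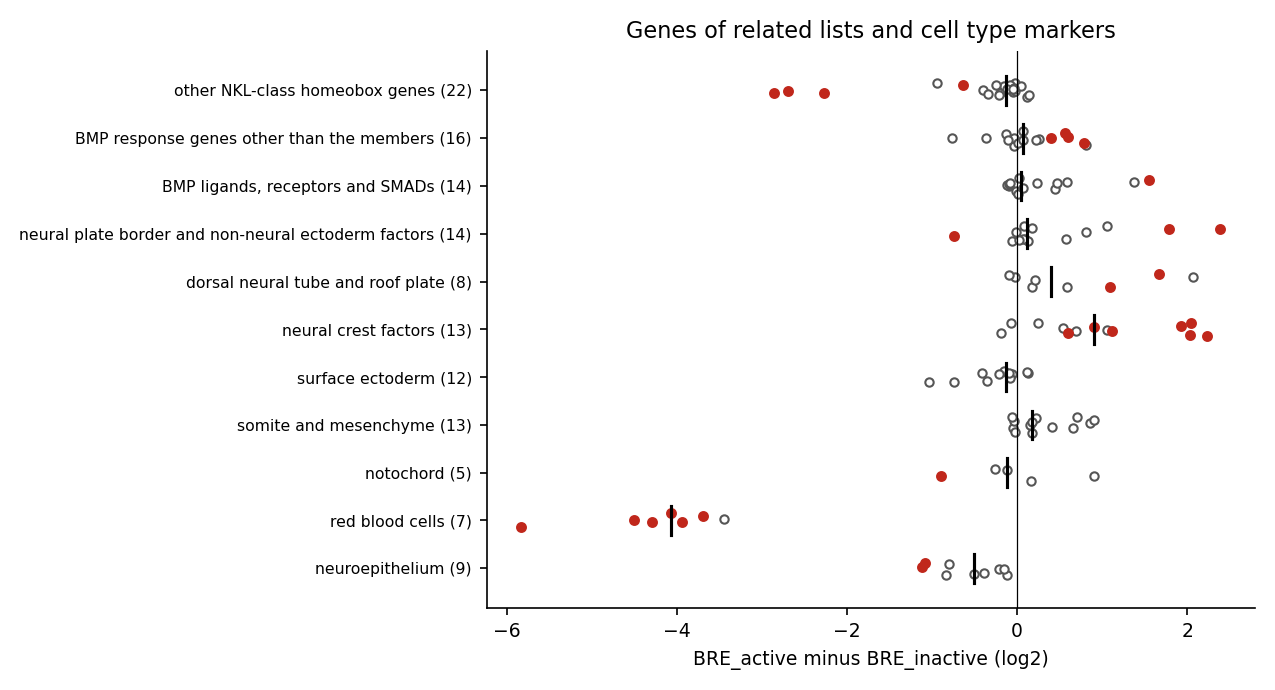
Log2 difference between BRE_active and BRE_inactive of each gene in 6 related lists and 5 cell type marker lists, with the number of measured genes in brackets. Each circle is a gene, red where called, and the black bar is the list's median, which runs from -4.07 for red blood cells to 0.90 for neural crest factors.

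The genes whose values over the 8 arrays were most like those of the members were named as a description, from 10306 probe sets of named genes present on at least 4 arrays. The likeness is Pearson's r of log2 values over all 8 arrays, so a shared difference between the 2 groups enters into it. The parts of r between and within groups were not separated. For MSX2 they were DLC1, a GTPase-activating protein gene (r = 0.991), MMP28, a matrix metalloproteinase gene (0.991), PPP1R1C, an inhibitor of protein phosphatase 1 (0.989), and RHBDF1 (0.989). For DLX5 they were DLC1 (0.987), LMO4 (0.984), MSX2 (0.984) and LRRC45 (0.984). For MSX1 they were KCNK7, which the deposited table calls KCNK1 (0.987), SOCS4, a suppressor of cytokine signalling (0.987), GSAP (0.985) and a second probe set of SOX10 (0.983). An r above 0.9 was reached by 232 probe sets for MSX1, 215 for MSX2 and 179 for DLX5, so the named genes are the top of long lists.

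The labelled cell type and the other cells that the sort could hold were checked by markers. All 9 neuroepithelial genes were present on at least 4 arrays, and 2 of them, SOX3 and PAX6, were lower in BRE_active cells, by -1.09 ± 0.11 and -1.11 ± 0.21 (log2, SE; limma adjusted p = 0.0027 and 0.0349). PAX6 lost its call in 9 of the 12 fits that left out an array or a pool, and SOX3 in 0. With the block, 5 of the 9 neuroepithelial genes were lower. Among all genes, 1.55% were called higher and 0.657% lower, and with the block 4.91% and 2.55%. In sorted bulk RNA, fewer cells of a type and less RNA of a gene per cell cannot be told apart. Of 12 measured surface ectoderm genes, a tissue that expresses DLX5, 0 were called by limma (1 at an unadjusted p under 0.05, 0 with the block), with a median of -0.13. Their summed linear signal ran from 2144 to 3355 in BRE_inactive and from 1219 to 3301 in BRE_active arrays, and 7 of the 12 were present on at least 4 arrays. EPCAM, CDH1, KRT7, KRT14, CLDN1 and TP63 were present on all 8, and CLDN4, GRHL2 and ESRP1 on 0. Of 13 somite and mesenchyme genes 0 were called (1 at an unadjusted p under 0.05, 0 with the block), with sums from 650.2 to 940.3 and from 492 to 1805. Of 5 notochord genes, 1 fell, FOXA2, which the floor plate also expresses, and 4 were not called; the sums ran from 392.8 to 511.2 and from 434.4 to 613.1, and SHH was present on 0 arrays. FOXA2 lost its call in 9 of the 12 fits that left out an array or a pool. TBXT, a notochord and tail bud factor, gave 0.91 ± 0.25 (log2 difference, SE; limma adjusted p = 0.142, 0.000784 with the block).

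Red blood cell genes were lower in the BRE_active group, in which MSX2, DLX5 and MSX1 were higher. Of 7 measured, 6 fell and 1 was not called, beside 0.657% of all genes called lower. With the block all 7 were lower, beside 2.55% of all genes. The 6 called genes lost their calls in 3 (HBZ) to 9 (HBAD) of the 12 fits that left out an array or a pool. The median log2 difference of the 7 genes was -4.07. Their summed linear signal ran from 40188 to 83989 in BRE_inactive and from 960.5 to 14337 in BRE_active arrays. In 3 control genes with probe sets at both transcript ends, the excess of 3-prime over 5-prime signal was greater in the BRE_active fraction of each of the 4 pools, by 0.33 on average (log2). The stated minimum cell numbers also differed, at 100000 red (RFP) cells and 20000 green (GFP) cells. The array BRE_active 1 had the highest MSX1, MSX2 and DLX5 values, with DLX5 at 10.32 against 10.09 to 10.29 on the other BRE_active arrays. Its list mean was the lowest of the BRE_active arrays in 5 of the 11 lists, the highest in 3 (border, dorsal and neuroepithelial genes) and neither in 3. The 5 were the NKL-class and notochord lists and those of somite (4.67 against 5.46 to 5.56 on the other BRE_active arrays), surface ectoderm (5.98 against 6.36 to 6.76) and red blood cells (6.43 against 7.29 to 9.56). The part of any of these in the members' differences was not tested. Without BRE_active 1 the log2 difference was 0.78 for MSX1, 1.59 for MSX2 and 1.79 for DLX5, with limma adjusted p = 0.0142, 0.00462 and 0.0106.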

How the data were processed

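RNA of 8 sorted fractions, 4 BRE_active and 4 BRE_inactive, was measured on Affymetrix arrays. The authors deposited log2 expression values for 38535 probe sets, 1 per array. The sources used here state neither the background correction, the normalization between arrays nor the probe summary. Their deposited table also gives log2 differences, adjusted p-values and, as a score from 0 to 4, how many arrays of a group had a present, marginal or absent call. The series matrix held the same deposited log2 values within 5e-09. The 8 columns with a present, marginal or absent letter per array were not used.

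The 96 control probe sets were left out, and 38439 were tested with limma 3.58.1 under R 4.3.3. The model held the group alone, and p-values were adjusted by Benjamini-Hochberg over all tested probe sets with a threshold of 0.05. This fit was checked on simulated data without pairing by pool, so the check does not cover paired arrays or the block. With the controls kept, the authors' deposited adjusted p-values were obtained again within 6.41e-13. Intervals are 95% intervals of the fit. Array medians lay between 4.24 and 4.32 (log2), arrays correlated between 0.974 and 0.996, and the number of arrays limits the precision. Differences are BRE_active minus BRE_inactive. For other genes, symbols were updated through the gene ID (22925 of 26142 IDs matched a RefSeq gene table of GRCg7b), and the probe set with the highest mean stands for a gene, which gave 13249 genes.

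Both fractions of a pool came from the same embryos and carry its number, which pairs the arrays. After subtraction of the group means, the 2 arrays of pools 1 to 4 correlated at -0.141, 0.203, 0.498 and 0.584. A fit with the pool as a block was run as an alternative, beside leaving out arrays or pools, median centring, quantile normalization, a filter on present calls, trended robust variances, array weights and an exact permutation test. The members and lists were chosen with earlier results of these data known. Named genes were all member probe sets, up to 4 called genes of each list with the smallest p, defining markers, and the 4 genes most like each detected member. The calls of single-gene markers outside that rule, the gene neighbours and the genes listed by present call were named after their values were seen. Motif searches and sequences planned for the members are not reported here.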

Additional observations from a re-analysis of the deposited data

How the results depend on the processing

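MSX2 and DLX5 were called higher in all alternatives fitted with limma, also in the 12 settings that left out an array or a pool. Their log2 differences ran from 1.58 to 1.77 and from 1.68 to 1.96, with limma adjusted p up to 0.0182 and 0.03. The exact permutation test gave each an unadjusted p of 0.0286, its smallest possible value, and so makes no call over all probe sets. MSX1 stayed positive, from 0.769 to 1.02, but was not called without BRE_active 2 or without pool 1, 2 or 3, with adjusted p up to 0.112. Without pool 4 and without BRE_active 4, MSX1 had a limma adjusted p of 0.00977 and 0.00538. Over all probe sets, these fits called 1269 and 1419. The fits without pool 1, 2 or 3 called 104, 112 and 77, and the fit without BRE_active 2 called 222. The cause of the lost calls was not tested. The pool as a block lowered the adjusted p to 0.0048 for MSX1, 0.000152 for MSX2 and 0.000352 for DLX5 and changed no call of a member. DLX3 and DLX6 were not called in any setting, and with a filter for presence on at least 4 arrays they gave no value. The sign of DLX6 was not stable: the mean of its 3 probe sets gave 0.0104, and the second of them gave -0.00241 with array weights and -0.0654 to 0.0606 when arrays or pools were left out.

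The number of called probe sets went from 517 to 2156 with the block and 1040 with array weights, and from 77 to 1419 when an array or a pool was left out. The 20 called genes of the related lists became 32 with the block and 3 to 26 when an array or a pool was left out. Of 29 called genes in all lists, 3 (DBX2, NKX6-2 and SOX3) were called in each of these 12 settings, and none changed sign in any setting.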
